A study of Mus musculus with 6 samples.

Results

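Endothelial cell genes were followed in mouse muscle through 10 genes known as markers of the cells that line blood vessels: Pecam1, Cdh5, Kdr, Flt1, Tek, Tie1, Emcn, Eng, Esam and Kank3. A probe set, a group of short probes designed against a transcript, was taken as a member when the platform annotation gave it 1 of these symbols. This rule found 17 of the 45037 probe sets tested. The rule itself uses no measured value, but the genes were chosen with earlier results of these data known. The 10 genes stand among 18193 genes named on the array. Each of the 10 genes had at least 1 probe set, and 6 of them had only 1. No filter on dim signals was applied to them.

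The arrays came from muscle of 3 mice labelled wild type (WT) and 3 labelled knockout (KO) for SIRT6, a chromatin-bound NAD-dependent deacylase, with 1 Affymetrix Mouse Genome 430 2.0 array per mouse. All 6 mice shared the 129SvJ strain background, and WT mice served as controls. The age and sex of the mice, the muscle sampled and the build of the deleted allele were not given in the sources used here. The replicates are labelled biological, and no batch is named. The deposited values are intensities on a linear scale, with array medians of 10.8 to 15. Hybridization controls, RNAs spiked into every sample, read 1.93 times as bright in WT replicate 1 as in WT replicate 2 and 0.968 to 1 times in the other 4 arrays. Muscle fibre markers were bright in every array, with a summed intensity of 10 genes of 74513.0 to 121302.2 in WT and 76513.3 to 80090.1 in KO. The Sirt6 probe set read 23.2, 15.1 and 21.3 in WT and 22.6, 18.3 and 13.7 in KO and did not check the labels, since its place relative to the deletion is not known here. The female-specific transcript Xist read 24.5 to 31.3 in WT and 715.4 to 1165.7 in KO at probe set 1436936_s_at, and the Y-linked Eif2s3y read 44.5 to 77.1 and 1.1 to 4.1, so genotype and sex cannot be told apart in any comparison here.

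Endothelial cells form the inner wall of vessels, and skeletal muscle is supplied by a dense bed of capillaries that lie along its fibres. Their identity rests on junction proteins that seal neighbouring cells, on the receptor tyrosine kinases of the VEGF and angiopoietin systems, which drive vessel growth and keep vessels quiet, and on co-receptors that pass BMP and TGF-beta signals. Because these transcripts are largely restricted to endothelium, their level in a whole-muscle extract follows both how many endothelial cells it holds and how much each cell transcribes. In bulk samples such as these, fewer cells and less RNA per cell cannot be told apart.

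No member passed the test between WT and KO muscle. Of the 17 probe sets 0 were called by limma at a Benjamini-Hochberg adjusted p under 0.05, against 0.00888% of all probe sets (4 of 45037, 0.00444% higher and 0.00444% lower in KO). The 2 called higher were both probe sets of the female-specific Xist. Before adjustment 2 of the 17 members were under 0.05, both Kank3 probe sets higher in KO, against 8.56% of all (3.57% higher and 4.99% lower). The KO mean was above the WT mean for 14 of the 17 on the log2(intensity + 16) scale and below it for 3. With each gene read at its brightest probe set, 8 of 10 genes were higher on average in KO and 2 lower (Kdr and Eng), and the median log2 difference was 0.16, while over all probe sets it was -0.01 and 48.4% were higher in KO. Without WT replicate 3 or without KO replicate 2, 6 of the 10 genes were higher in KO and the median was 0.07 or 0.06. Differences ran from -0.39 for Kdr to 0.65 for Kank3. All 3 KO arrays lay above all 3 WT arrays in 2 of the 17 probe sets (11.8%), 1 of Flt1 and 1 of Kank3, and below them in 0; over all probe sets 5.02% lay above, 7.29% below and 12.3% one way or the other. The range among the 3 KO arrays was larger than the difference between groups in 15 of the 17.

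**Figure D1:**
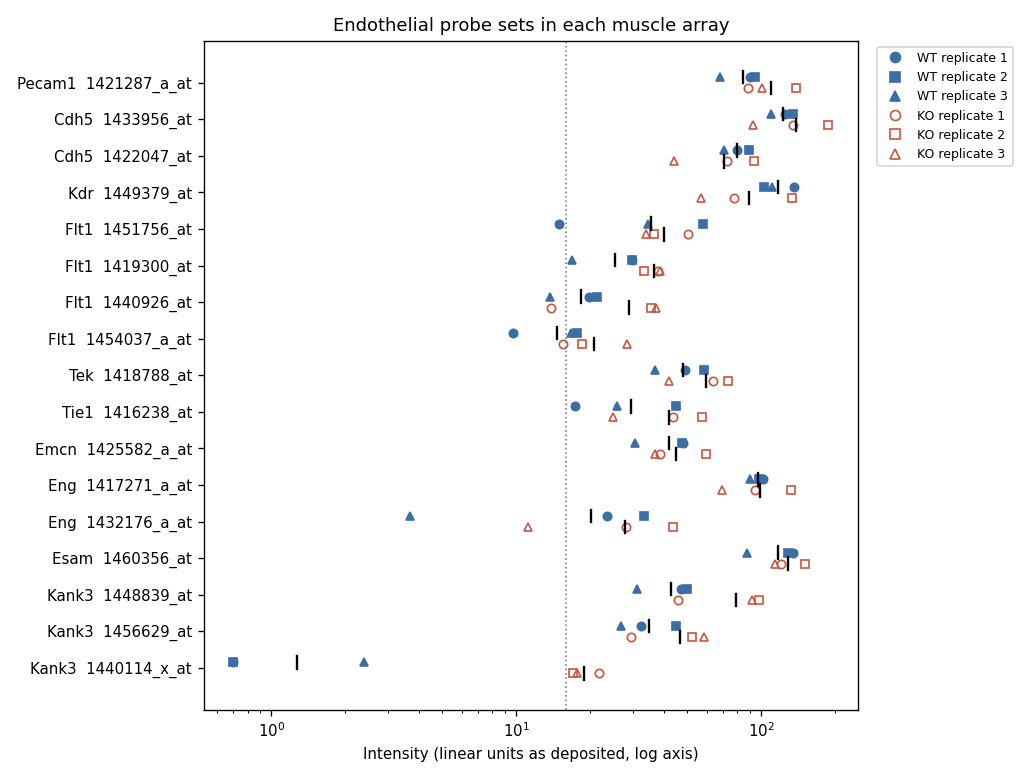
Intensity of the 17 endothelial probe sets in each array (log axis, linear units as deposited), with WT arrays as filled and KO arrays as open symbols, black ticks at the group means and a dotted line at the offset of 16. The groups overlap in 15 probe sets, and the KO symbols stand clear of the WT symbols only for Flt1 1419300_at and Kank3 1440114_x_at.

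Pecam1, Cdh5 and Esam encode adhesion proteins of the endothelial junction. Pecam1, the platelet and endothelial adhesion molecule also known as CD31, read 89.8, 94.1 and 68.2 in WT replicates 1, 2 and 3 and 88.9, 138.7 and 101.3 in KO replicates 1, 2 and 3. The groups overlapped, with KO replicate 2 above the rest and KO replicate 1 among the WT values. The means were 84.0 ± 13.9 and 109.6 ± 25.9 (SD, n = 3 each), a log2 difference of 0.32 with a 95% interval of -0.14 to 0.77 (limma adjusted p = 0.688).

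Cdh5, or VE-cadherin, which forms the adherens junctions between endothelial cells, was measured by a pair of probe sets that differed in direction. The brighter one, 1433956_at, read 124.8, 135.2 and 109.7 in WT and 135.4, 188.4 and 93.0 in KO, so that the KO group held both the brightest and the dimmest array. Its log2 difference was 0.11 (interval -0.45 to 0.67, limma adjusted p = 0.942). The other, 1422047_at, read 79.6, 89.6 and 70.6 in WT and 72.8, 94.0 and 44.2 in KO, a difference of -0.19 (interval -0.74 to 0.36, limma adjusted p = 0.872). In both, KO replicate 2 was brightest and KO replicate 3 dimmest, so the probe sets ordered the extreme KO arrays alike although their mean differences had opposite signs. Esam, an immunoglobulin-family adhesion molecule of tight junctions, read 134.9, 128.5 and 87.8 in WT and 120.5, 151.8 and 114.3 in KO. WT replicate 3 was the dimmest array for Esam, and its difference was 0.13 (interval -0.32 to 0.59, limma adjusted p = 0.896).

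The VEGF receptors lay on opposite sides of 0. Kdr, also called VEGFR2, the main signalling receptor for VEGF-A, read 136.8, 103.1 and 110.9 in WT and 77.4, 134.2 and 57.0 in KO. KO replicates 1 and 3 were below every WT array, while KO replicate 2 lay among them. The means were 116.9 ± 17.6 and 89.5 ± 40 (SD, n = 3 each), the most negative of the 17 differences at -0.39 (interval -1.04 to 0.25, limma adjusted p = 0.736). Without KO replicate 3 the difference was -0.16, and without KO replicate 2 it was -0.68.

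Flt1, or VEGFR1, binds VEGF-A tightly, signals weakly and is also made as a soluble decoy. Its 4 probe sets all had higher means in KO, with differences of 0.20 to 0.36. Probe set 1419300_at read 29.8, 29.6 and 16.9 in WT and 38.0, 33.2 and 38.6 in KO. The groups did not overlap there, and the KO values were close together. The difference was 0.36 (interval -0.04 to 0.76, limma adjusted p = 0.608). Probe set 1440926_at read 19.9, 21.4 and 13.8 against 13.9, 35.4 and 37.2, with KO replicate 1 at the level of the dimmest WT array. Probe set 1454037_a_at read 9.7, 17.7 and 16.8 against 15.5, 18.6 and 28.3, near the offset of 16, and its groups overlapped too. The probe set with the highest mean, 1451756_at, read 15, 57.7 and 34.4 against 50.2, 36.5 and 33.9. There the spread lay in the WT group, and leaving out WT replicate 1 turned the difference from 0.20 to -0.13, so the direction of Flt1 at this probe set rested on that array.

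Tek and Tie1 encode the receptor TIE2, which binds the angiopoietins, and its partner TIE1, which has no established ligand of its own and modulates TIE2. Tek read 48.8, 58.3 and 37.0 in WT and 63.6, 73.2 and 42.0 in KO. Tie1 read 17.4, 44.9 and 25.7 in WT and 43.6, 57.5 and 24.9 in KO. In both genes KO replicate 2 was brightest, KO replicates 1 and 2 exceeded the WT mean, and KO replicate 3 lay within the WT values. The differences were 0.23 for Tek (interval -0.27 to 0.73, limma adjusted p = 0.814) and 0.36 for Tie1 (interval -0.34 to 1.06, limma adjusted p = 0.783).

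Eng encodes endoglin, a co-receptor that presents BMP9 and BMP10 to the receptor kinase ALK1, and Emcn encodes endomucin, a sialomucin of the vessel lumen that is richest in capillaries and veins. Eng at 1417271_a_at read 102.2, 98.2 and 90.4 in WT, a narrow range, and 94.1, 133.2 and 69.5 in KO. The WT values fell inside the KO range, and the difference was -0.01 (interval -0.51 to 0.49, limma adjusted p = 0.996), the smallest of the 17 in size. Its dimmer probe set 1432176_a_at read 23.4, 33.4 and 3.7 against 28.2, 43.8 and 11.2, with replicate 3 dimmest in both groups. There the difference had the opposite sign, at 0.30 (interval -0.68 to 1.28, limma adjusted p = 0.889). Emcn read 47.9, 47.7 and 30.5 in WT and 38.5, 59.7 and 37.0 in KO, a difference of 0.07 (interval -0.41 to 0.55, limma adjusted p = 0.963). For Emcn as well, WT replicate 3 was dimmest and KO replicate 2 brightest.

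Kank3, an ankyrin-repeat adaptor protein of the KANK family linked to the actin cytoskeleton, had the widest difference among the 10 genes. At its brightest probe set, 1448839_at, it read 47.3, 49.7 and 31.3 in WT and 46.0, 98.0 and 92.1 in KO. KO replicates 2 and 3 were well above every WT array and KO replicate 1 was among them. The means were 42.8 ± 10 and 78.7 ± 28.5 (SD, n = 3 each), a fold of 1.57 on the log2(intensity + 16) scale (95% interval 1.01 to 2.44) with a limma adjusted p of 0.581, which ranged from 0.188 to 0.876 over the alternatives. Probe set 1456629_at read 32.5, 45.1 and 26.9 against 29.4, 52.4 and 58.5, with the same arrays high and a difference of 0.29 (interval -0.26 to 0.84, limma adjusted p = 0.780).

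The third Kank3 probe set, 1440114_x_at, read 0.7, 0.7 and 2.4 in WT and 21.8, 17.1 and 17.7 in KO. It was near 0 in each WT array and just above the offset of 16 in each KO array, and KO replicate 1, which was lowest among the KO arrays at 1448839_at, was highest here. Its log2 difference of 1.01 (interval 0.72 to 1.30) had an unadjusted p of 8.75e-05 and did not pass (limma adjusted p = 0.247, 0.124 to 0.813 over the alternatives). The size of this difference followed the offset, at 3.21 with an offset of 1 and 0.34 with an offset of 64. The suffix x in the probe set's name marks probes that can match other transcripts, and the share of this signal that comes from Kank3 was not tested.

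**Figure D2:**
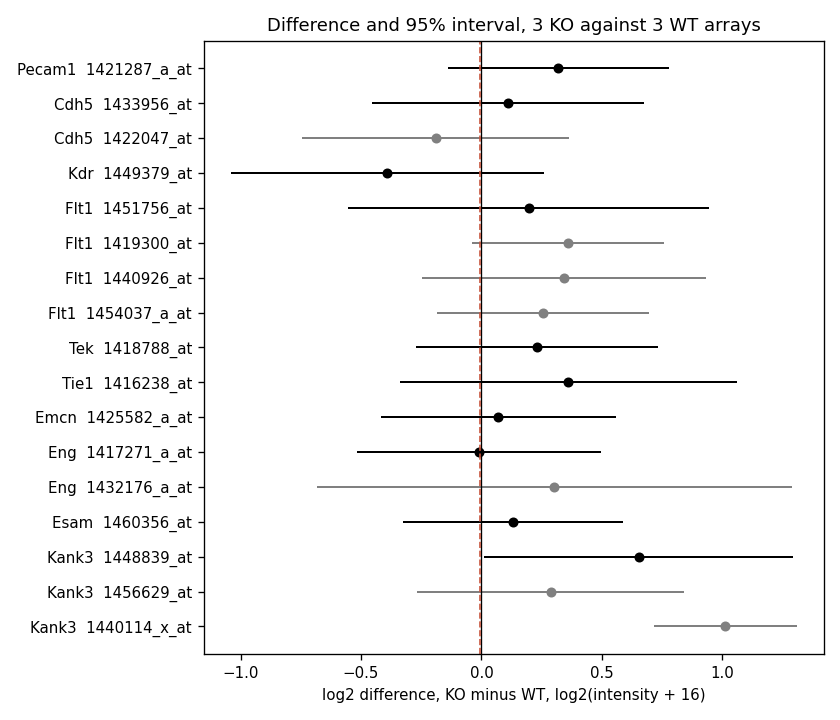
Log2 difference between KO and WT (log2(intensity + 16), 3 arrays each) for the 17 probe sets, with 95% limma intervals as lines; black marks the brightest probe set of each gene, grey the others, and the dashed line the median of all probe sets (-0.01). The intervals of Kank3 1448839_at and 1440114_x_at lie above 0 and the other 15 cross it.

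Most of the members were brightest in the same array. KO replicate 2 was the brightest array in 10 of 17 probe sets (58.8%), against 18.4% of all probe sets, and in 8 of the 10 genes, Kdr and Flt1 being the exceptions. WT replicate 3 was dimmest in 5 of the 10 genes (Pecam1, Tek, Emcn, Esam and Kank3), KO replicate 3 in 3 (Cdh5, Kdr and Eng) and WT replicate 1 in 2 (Flt1 and Tie1). The median log2 distance of the 10 genes from their WT means was 0.08, 0.15 and -0.19 in WT replicates 1, 2 and 3 and 0.09, 0.45 and -0.11 in KO replicates 1, 2 and 3. The same medians over all probe sets were 0.12, -0.01 and -0.11 in WT and -0.08, 0.03 and -0.01 in KO. Between 51.7% and 60.3% of all probe sets on an array read below 16, where the offset flattens differences. KO replicate 2 also had raised medians in other lists, at 0.36 for endothelial transcription factors, 0.32 for Schwann cells, 0.29 for the Notch list, 0.22 for macrophages and 0.21 for both mural cells and the endoglin branch. Further lists had medians below 0 in this array. Among them were adipocytes (-0.55), muscle fibres (-0.22), fibro-adipogenic progenitors (-0.11), activated endothelium (-0.08), VEGF and angiopoietin ligands (-0.08) and lymphatic endothelium (-0.04). What this array shares across the lists was not tested. Among the members KO replicate 2 was still brightest in 7 of the 10 genes after quantile normalization and in 9 after median centring or scaling to the hybridization controls. The dimmest array did depend on scaling: after quantile normalization it was KO replicate 3 in 6 genes, and after scaling to the hybridization controls WT replicate 1 in 9.

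The genes differed in how closely they kept to their common profile. The mean absolute distance from the average profile of the 10 genes over the 6 arrays was 0.07 for Tek, 0.08 for Emcn, 0.09 for Cdh5, 0.11 for Esam and 0.12 for both Pecam1 and Eng, in log2 units. It was 0.20 for Tie1, 0.30 for Kdr, 0.32 for Kank3 and 0.35 for Flt1. The median distance of 11490 other genes from the same profile was 0.27, so Kdr, Kank3 and Flt1 lay farther from it than a typical gene, although each member is part of the average. In KO replicate 3 the genes spread most widely, from -0.86 for Kdr through -0.40 for Eng and -0.35 for Cdh5 to 0.24 for Pecam1 and 0.89 for Kank3.

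**Figure D3:**
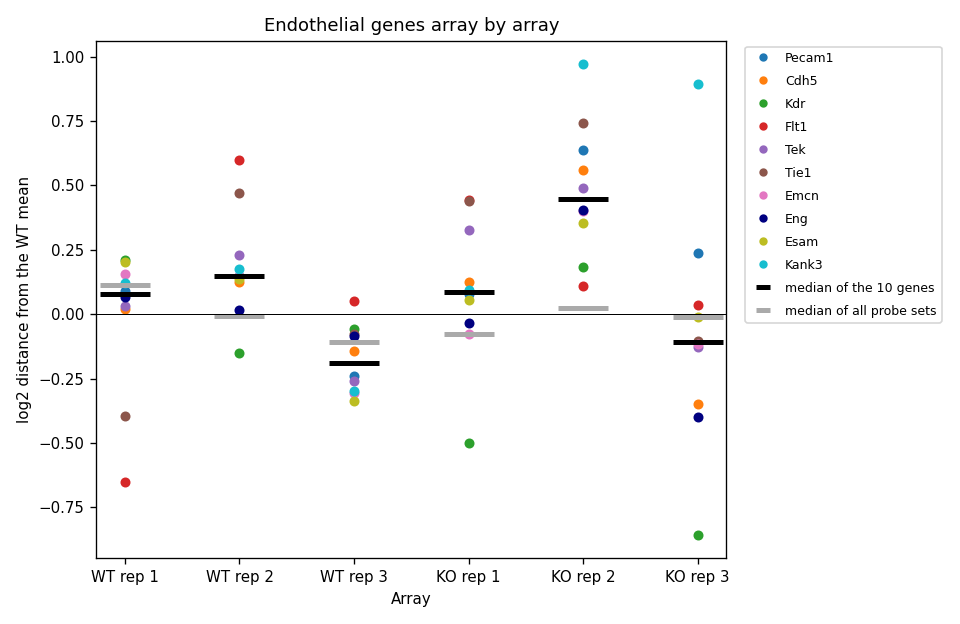
Log2 distance from the WT mean of each of the 10 genes (points, brightest probe set) in each array, with the median of the 10 genes as black bars and of all 45037 probe sets as grey bars. In KO replicate 2 every gene is above 0, and in KO replicate 3 the genes range from -0.86 (Kdr) to 0.89 (Kank3).

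Sequences ahead of the start site were available for 7 of the 10 genes in RefSeq (GRCm38.p6), and 4 are shown because their genes span the range of differences above. Kank3 and Kdr lie at its ends, Flt1 is the receptor related to Kdr, and Eng is near 0 at its brighter probe set. ETS-family transcription factors, which bind sites with a GGAA core, are known regulators of endothelial genes. Each sequence holds the 250 bases before the start, 5′ to 3′ on the gene's strand, and capitals mark CCGGAA or AGGAAG on either strand, motifs that cannot sit on the same GGAA core but can share bases at their ends.
Kank3 (chr17:33810273-33810522, plus strand): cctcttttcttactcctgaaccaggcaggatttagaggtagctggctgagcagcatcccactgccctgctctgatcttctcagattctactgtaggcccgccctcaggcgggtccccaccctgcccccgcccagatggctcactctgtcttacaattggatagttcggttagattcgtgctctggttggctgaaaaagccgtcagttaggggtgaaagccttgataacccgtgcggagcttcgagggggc
Kdr (chr5:75978456-75978705, minus strand): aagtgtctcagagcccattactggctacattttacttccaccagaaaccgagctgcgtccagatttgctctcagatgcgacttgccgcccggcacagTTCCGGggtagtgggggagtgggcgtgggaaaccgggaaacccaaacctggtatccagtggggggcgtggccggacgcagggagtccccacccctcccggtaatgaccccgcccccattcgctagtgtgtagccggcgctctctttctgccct
Flt1 (chr5:147726012-147726261, minus strand): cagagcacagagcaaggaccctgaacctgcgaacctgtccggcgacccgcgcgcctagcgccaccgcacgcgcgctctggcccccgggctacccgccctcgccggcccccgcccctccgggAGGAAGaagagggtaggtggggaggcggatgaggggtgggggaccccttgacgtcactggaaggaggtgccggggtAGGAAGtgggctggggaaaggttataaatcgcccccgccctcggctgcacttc
Eng (chr2:32646345-32646594, plus strand): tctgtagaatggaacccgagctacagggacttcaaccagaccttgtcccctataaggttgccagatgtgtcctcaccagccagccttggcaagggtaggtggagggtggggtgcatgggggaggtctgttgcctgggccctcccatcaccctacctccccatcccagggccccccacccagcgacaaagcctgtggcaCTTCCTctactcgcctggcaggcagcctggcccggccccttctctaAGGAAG
Of the 7 members AGGAAG was found in 4 (Flt1, Tie1, Emcn and Eng), against 29.5% of the 32851 promoters of this length, and CCGGAA in 1 (Kdr), against 12.0%. The windows of Kank3 and Tek held neither string of letters. A match is a description of the letters and not of a bound site.

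Other endothelial genes were also higher on average in KO replicate 2. Of 35 measured pan-endothelial genes 0 were called in either direction by limma, with 2 higher and 1 lower at an unadjusted p under 0.05. Over all probe sets 8.56% were under that level, 3.57% higher and 4.99% lower in KO. The median log2 difference of the 35 genes was 0.17, with 25 higher and 10 lower on average. This median was 0.41 after scaling to the hybridization controls, 0.00 without WT replicate 3, and it turned to -0.03 without KO replicate 2. By array the median distance was highest in KO replicate 2 (0.41) and lowest in WT replicate 3 (-0.30), as for the members. Cd36, a fatty acid translocase that muscle fibres also express, read 613.1, 563.7 and 359.2 in WT and 551.7, 1279.4 and 984.2 in KO, again with KO replicates 2 and 3 high (limma adjusted p = 0.584). Aqp1, a water channel, Cav1, the caveolae coat protein, and Fabp4, a fatty acid carrier shared with adipocytes, had differences of 0.26, -0.29 and -0.29 with overlapping groups. Gpihbp1, which carries lipoprotein lipase into the capillary lumen and was picked out after its values were seen, read 221.0, 184.3 and 144.5 in WT and 230.6, 368.6 and 298.6 in KO (limma adjusted p = 0.552).

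Ligands and co-receptors of the member receptors were compared next. Of 10 VEGF, angiopoietin and apelin ligand genes 0 were called by limma (0 higher and 2 lower at an unadjusted p under 0.05), the median difference was -0.14 and 8 had lower means in KO. Over all probe sets 3.57% were higher and 4.99% lower at that unadjusted level. Vegfa, the ligand of Kdr and Flt1, read 121.1, 129.8 and 109.6 in WT and 105.9, 101.2 and 106.7 in KO, with every KO array below every WT array and a difference of -0.17 (interval -0.46 to 0.11, limma adjusted p = 0.734). Vegfb, which binds Flt1, had a difference of -0.14, and Vegfd read 26.3, 9.1 and 13.8 against 16.8, 34.1 and 150.5, high in KO replicate 3 alone. Angpt1, the activating ligand of Tek, read 86.0, 38.1 and 33.5 in WT and 22.2, 24.2 and 17 in KO, also without overlap (difference -0.81, interval -1.48 to -0.14, limma adjusted p = 0.562). Among 14 co-receptors and other vascular receptors 0 were called by limma (0 higher and 3 lower at an unadjusted p under 0.05), and 7 had every KO array below every WT array, where 7.29% of all probe sets did. The VEGF co-receptor Nrp1, picked out after its values were seen, read 181.4, 145.6 and 123.4 in WT and 111.5, 107.5 and 86.0 in KO (difference -0.49, limma adjusted p = 0.563), and the apelin receptor Aplnr, also so chosen, read 146.3, 178.3 and 160.8 against 110.3, 129.4 and 15.7. The 14 held 6 higher and 8 lower means with a median of -0.14, but it was 0.11 after scaling to the hybridization controls and 0.00 without KO replicate 1; that of the ligands was 0.06 after the same scaling and -0.02 without WT replicate 1. Ptprb, the phosphatase that acts on TIE2, Bmpr2, Tgfbr2 and Tgfbr3 had differences of 0.22, 0.07, -0.10 and 0.62, all with overlapping groups.

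Signalling and transcription lists around the members held 0 called genes by limma. At an unadjusted p under 0.05 by limma, 3.57% of all probe sets were higher and 4.99% lower in KO. The endoglin branch of BMP and TGF-beta signalling had a median of 0.05 over 16 genes (-0.05 without WT replicate 3 and -0.04 without KO replicate 2), with 0 higher and 1 lower at an unadjusted p under 0.05. Smad4 had a difference of 0.67, and the target gene Id1 read 161.7, 92.4 and 46.0 against 143.1, 246.0 and 165.5. The groups overlapped in both (limma adjusted p = 0.602 and 0.595). Picked out after their values were seen, Id2 and Smad6, the 1 lower gene, were at -0.43 and -0.40, and Id3 at 0.25. Of the 16 genes 9 were higher and 7 lower on average. The Notch list had a median of 0.17 over 14 genes, with 0 at that unadjusted level, and its receptor Notch1 was brightest in KO replicate 2 at 129.0. The effector Rbpj had a difference of 0.19, the ligand Jag2 one of -0.32 and the target Heyl one of -0.37, the last pair with every KO array below every WT array. Nrarp and Jag1, picked out after their values were seen, had every KO array above, each with a difference of 0.25, and 10 of the 14 were higher on average; over all probe sets 7.29% lay below and 5.02% above. Endothelial transcription factors had a median of 0.03 over 21 genes with 0 at that level (-0.13 without KO replicate 2, -0.02 without WT replicate 3 and 0.18 without KO replicate 3), and Klf2, a factor induced by blood flow, read 96.6, 70.8 and 37.7 against 96.1, 114.6 and 105.2. Ets2, Tcf4 and Epas1 had differences of 0.27, -0.12 and 0.31. Junction partners of Cdh5 and Esam had a median of -0.02 over 16 genes, with 0 at that level, and this median was 0.16 after scaling to the hybridization controls, 0.06 without WT replicate 1 and 0.03 without KO replicate 3. The catenins Ctnnb1 and Jup had differences of -0.10 and 0.59, and the actin-linked Vcl and Afdn of -0.31 and 0.46. Genes of activated endothelium had a median of 0.11 over 10 genes, with 7 higher on average and 0 higher and 1 lower at that level. The median was 0.03 without WT replicate 3 and turned to -0.02 without KO replicate 3. Of them 5, among them Icam1, Sele and Selp, had mean intensities under 16. Thrombomodulin, Thbd, an anticoagulant receptor in that list, read 85.4, 80.8 and 64.9 in WT and 52.1, 53.3 and 35.4 in KO (difference -0.57, limma adjusted p = 0.529). The other 3 of its 4 brightest genes lay the other way with overlapping groups, at 0.13 for the TNF receptor Tnfrsf1a, 0.20 for the chemokine-binding Ackr1 and 0.29 for von Willebrand factor, Vwf. Lymphatic endothelium had a median of -0.16 over 6 genes (0 higher and 1 lower at that level), which was 0.02 after scaling to the hybridization controls, and its defining gene Prox1 was under 16 on average.

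Markers of neighbouring cell types were read on the same arrays, and 0 genes of these lists were called by limma. At an unadjusted p under 0.05 the adipocyte list had 5 of 8 genes lower and progenitors 3 of 9 lower. Mural cells had 1 of 13 and Schwann cells 1 of 5 lower, and macrophages had 1 higher and 1 lower of 11. Platelets and satellite cells had 1 of 7 higher each, and red blood cells and muscle fibres 0. Over all probe sets 8.56% were under that level, 3.57% higher and 4.99% lower in KO. Mural cells, which wrap capillaries and arterioles, had a median of 0.00 over 13 genes and summed intensities of 3728.4 to 5105.1 in WT and 4221.2 to 5156.3 in KO. The median was 0.16 without WT replicate 1 and -0.21 without KO replicate 2. Much of the sum came from Des, the intermediate filament desmin, which muscle fibres also make and which had means of 2254 in WT and 2634 in KO with every KO array higher (difference 0.23, limma adjusted p = 0.707). Their pericyte marker Rgs5 read 852.5, 845.6 and 544.4 against 730.2, 967.2 and 622.6, with KO replicate 2 highest and WT replicate 3 lowest, as for the members. Acta2, smooth muscle actin, read 802.0, 585.0 and 539.2 against 340.2, 255.1 and 105.4, lower in every KO array (limma adjusted p = 0.524). The mural list went both ways, with 6 of 13 genes higher and 7, Acta2 among them, lower on average in KO. Abcc9 was at 0.12 and, picked out after their values were seen, Tagln at 0.29, Myh11 at 0.00 and Pdgfrb at 0.45. Also so chosen, Notch3, Cspg4 and Cnn1 were at -0.22, -0.33 and -0.41, the last under 16 on average. Platelets and macrophages also carry Pecam1: of 7 platelet genes 3 (Ppbp, Gp9 and Itgb3) were under 16 on average, with sums of 188.4 to 246.2 in WT and 158.4 to 220.8 in KO, and the macrophage sums over 11 genes were 439.6 to 756.6 and 393.6 to 660.6. Their median differences were 0.08 and -0.05. Of 6 red blood cell genes 3 were measured, with a median of -0.04. Hba-a1 and Slc4a1 were under 16, and Alas2, the erythroid heme synthesis enzyme, read 53.7, 56.5 and 40.9 in WT and 40.1, 47.5 and 18.5 in KO. Probe sets to which the annotation gave several symbols were not read for any gene. These 3 genes therefore do not show how much blood the samples held. Fibro-adipogenic progenitors had a median of -0.50 over 9 genes, with sums of 7755.5 to 12797.0 in WT and 4602.5 to 7911.2 in KO. Much of the sum came from the collagens Col3a1 and Col1a1, with means of 3827 and 2834 in WT and 2621 and 1170 in KO. Gsn and Dcn, the next brightest, had differences of -0.13 and -0.21 with overlapping groups. By array the progenitor median lay -0.30, -0.11 and -1.43 from the WT means in KO replicates 1, 2 and 3. Without KO replicate 3 the median difference was -0.25. Pdgfra, picked out after its values were seen, was the 1 gene of the 9 with a higher mean, at 0.45. Adipocytes had a median of -0.76 over 8 genes, with sums of 1992.7 to 3839.0 in WT and 609.7 to 808.7 in KO. Much of the gap in these sums came from Scd1, Cidea and Ucp1. Their means were 798.4, 565.3 and 677.9 in WT and 87.8, 163.7 and 46.0 in KO. Adipoq had a difference of -0.66 with overlapping groups. Cidec and Pparg, picked out after their values were seen, were at -0.09 and -0.06, also with overlapping groups. All 8 means were lower in KO. Satellite cell and Schwann cell medians were 0.07 over 7 genes and 0.05 over 5, and Schwann sums were highest in KO replicate 2 at 851.1. The muscle fibre median of -0.20 was -0.01 after quantile normalization, 0.04 without WT replicate 1 and 0.13 after scaling to the hybridization controls. Fibre genes such as Atp2a1, at 10573.2 in WT replicate 3 and 10562.5 in KO replicate 3, held the highest intensity of those arrays, so saturation may bound these differences and was not tested. Leaving out single arrays also turned the sign of the macrophage, platelet, red blood cell and Schwann medians. The part of these other cells in the endothelial readings was not tested.

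**Figure D4:**
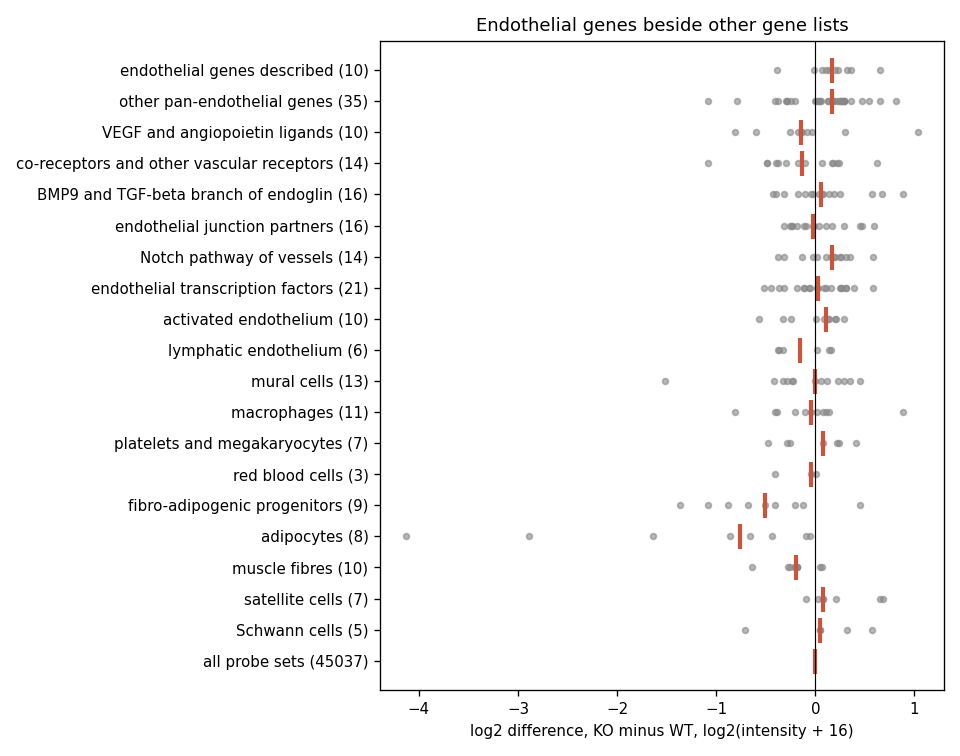
Log2 difference between KO and WT of each gene (grey points, brightest probe set) in 19 lists, with the list median and the median of all probe sets as red bars and the number of measured genes in brackets. The endothelial genes described and the other pan-endothelial genes centre at 0.16 and 0.17, while adipocyte genes centre at -0.76.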

How the data were processed

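The authors deposited linear intensities, 1 for each probe set on each array, from Affymetrix Mouse Genome 430 2.0 arrays hybridized with biotin-labelled muscle RNA, per the labels' protocols. Software, scaling and background correction were not given in the sources used here. Of 45101 probe sets 64 manufacturer's controls were left out. Values were taken as log2(intensity + 16) without further normalization, so differences of dim probe sets are understated. They were tested with limma 3.58.1 in R 4.3.3 (lmFit and eBayes, two-sided, Benjamini-Hochberg over 45037 probe sets, threshold 0.05), which was tested on simulated data. Precision is limited by having 3 arrays a group.

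The platform annotation gave 1 symbol for 34945 probe sets, several for 932 and none for 9160; 34741 matched the RefSeq gene table, used for current names. A gene was read at its probe set with the highest mean among those given 1 symbol. Lists (19, with 212 of 224 genes measured) carry no set test. Members and lists were chosen with earlier results of these data known, and some genes sit in several lists. Named were every member probe set, the 4 genes with the highest mean in each list or fewer, and 5 genes closest in profile; others are marked as chosen after their values were seen, as were Icam1, Sele, Selp, Prox1, Ppbp, Gp9 and Itgb3, named as dim markers. Same-numbered WT and KO arrays did not deviate together.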

Additional observations from a re-analysis of the deposited data

How the results depend on the processing

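Of the 17 endothelial probe sets 0 were called under each alternative run: quantile normalization, median centring, scaling to hybridization controls, the filter to the 22518 probe sets above the median level (which left out Kank3 1440114_x_at), a trended and robust variance, the replicate block, an offset of 1 or 64, leaving out any 1 array, and a threshold of 0.1. The lowest adjusted p of any was 0.124, for Kank3 1440114_x_at with median centring.

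All probe sets called, 4 in the reported analysis, were 9 with quantile normalization, 11 with median centring, 79 with the filter, 15 with a trended and robust variance, 0 with the replicate block (3367 at an unadjusted p under 0.05 by limma), 1 with an offset of 64, 9 at a threshold of 0.1 and 1 to 6 with single arrays left out; the cause was not tested. The replicate block is no stated paired design here, since the labels name no pairing. The correlations of same-numbered arrays' deviations were -0.06, 0.03 and -0.06, which cannot show whether arrays were paired.

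Genes lower in KO, 2 of 10, were 1 with median centring, 1 with scaling to hybridization controls and 1 to 4 with single arrays left out. The median difference of the 10 genes stayed above 0, at 0.06 without KO replicate 2 to 0.41 with scaling to hybridization controls, which moved the median of all probe sets to 0.10.

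Signs turned for Cdh5 with the mean of its probe sets (-0.040) and, at 1422047_at, with scaling to hybridization controls (0.069), and for Eng with median centring (0.011), scaling to hybridization controls (0.27) and the mean of its probe sets (0.15). With single arrays left out, ranges crossed 0 for Cdh5 (-0.11 to 0.34; 1422047_at -0.39 to 0.048), Emcn (-0.10 to 0.16), Eng (-0.22 to 0.18; 1432176_a_at -0.085 to 0.61), Esam (-0.037 to 0.23) and Flt1 (-0.13 to 0.50). Pecam1, Tek, Tie1, Kdr and Kank3 kept their direction under the scalings, offsets and left-out arrays; the filter, the variance model and the replicate block cannot move a difference, nor can averaging probe sets where a gene has 1.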

Other observations

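The 5 genes outside the list whose profile over the 6 arrays lay closest to the average of the 10 endothelial genes, out of 11490 genes with a mean level above the median, were Arhgap20, Dgke, a diacylglycerol kinase, Zfp687, a zinc finger gene, Rap2c, a Ras-family GTPase, and Lims1, an adaptor of integrin adhesions. Their mean absolute distances from that average were 0.042, 0.043, 0.046, 0.046 and 0.048 in log2 units, where the median of the ranked genes was 0.27. Dgke read 16.2, 19.1 and 11.4 in WT and 15.4, 25.7 and 12.0 in KO, near the offset of 16, where differences are flattened. Lims1 read 129.0, 142.3 and 110.3 in WT and 134.2, 199.0 and 111.4 in KO, again with KO replicate 2 highest.

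Among pan-endothelial genes, and chosen after their values were seen, Plvap, the diaphragm protein of fenestrated vessels, read 56.2, 27.8 and 19.0 in WT and 16.7, 6.4 and 13.1 in KO, with every KO array lower (limma adjusted p = 0.564). Nos3, the endothelial nitric oxide synthase, read 42.6, 44.6 and 36.0 against 55.6, 57.5 and 48.2, with every KO array higher (limma adjusted p = 0.595). Adgrl4, an adhesion G protein-coupled receptor of endothelium, read 61.8, 63.0 and 46.9 against 70.6, 114.2 and 89.6 (limma adjusted p = 0.562). Of the 35 genes in that list the groups did not overlap in 5, of which 3 were higher and 2 lower in KO, where 12.3% of all probe sets did not overlap (5.02% above and 7.29% below).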
